A study of Homo sapiens with 12 samples.

Results

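Here 10 genes of the Wnt pathway were followed in AHR knockout and Cas9 control cells of a pair of triple negative breast cancer lines. They were chosen by name as 3 ligands, WNT5A (ENSG00000114251_at), WNT5B (ENSG00000111186_at) and WNT7B (ENSG00000188064_at), the receptors FZD7 (ENSG00000155760_at) and LRP6 (ENSG00000070018_at), the antagonists DKK1 (ENSG00000107984_at) and DKK3 (ENSG00000050165_at), the feedback inhibitor AXIN2 (ENSG00000168646_at) and the nuclear factors LEF1 (ENSG00000138795_at) and TCF7 (ENSG00000081059_at). They are 10 of the 31720 Ensembl gene rows measured. The rule that names them uses no measured value, but it was drawn up with earlier results of these data known, so the set is not blind to them. Affymetrix arrays of the whole human genome were hybridised with 12 RNA samples, which fall into 4 groups of 3, namely control and AHR KO cells of MDA-MB-231, a line with mesenchymal features, and control and AHR KO cells of SUM149, derived from an inflammatory breast cancer. Every group was transduced with lentiCRISPR v2 virus that carries Cas9, the AHR KO cells with guides to the first exon of AHR and the control cells without a guide. The cells were plated by serial dilution under puromycin, but the number of clones behind each group was not given in the sources used here, so a difference between clones and loss of AHR cannot be told apart. The lines were also grown in different media, that of SUM149 with insulin and hydrocortisone, and line and medium cannot be told apart either.

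In the canonical pathway, a Wnt ligand binds a Frizzled receptor together with the co-receptor LRP5 or LRP6, the complex that degrades β-catenin is switched off, and β-catenin enters the nucleus to act with TCF/LEF factors on target genes such as AXIN2. Secreted DKK1 blocks LRP5 and LRP6. WNT5A and WNT5B act mostly through routes that do not need β-catenin and that govern cell polarity and movement, and the pathway is known in breast cancer for its links to stem-like cells, invasion and metastasis.

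The deposited values were log2 expression made with RMA, so a difference of 1 is a doubling of array signal. Differences were tested with limma on the 31720 rows together, with p-values adjusted over all of them after Benjamini and Hochberg, and the word called is used of a gene whose adjusted p was at most 0.05. The arrays of a group were described as biological replicates, but whether they came from separate cultures was not given, so p-values here reflect only how far these arrays spread, part of which may be technical. The median row had a standard deviation between replicates of 0.139. Medians of the arrays ran from 3.62 to 3.70, and levels near or below these were not compared with background, so small differences there are less certain. The annotation table used here named 0 of the row IDs. The names of the 10 genes came with the choice, while the AHR transcript and markers of the lines were not read as a check of the labels.

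Loss of AHR went with lower WNT5A and lower DKK1 in SUM149 and with lower FZD7 in MDA-MB-231. No gene of the 10 was called in both lines. How many of all rows were called in both was not counted, but it cannot exceed the 3.92% called in MDA-MB-231. In SUM149, 2 of the 10 were called, both lower, where 16.8% of all rows were called (8.23% lower and 8.59% higher). In MDA-MB-231, 1 of the 10 was called, also lower, where 3.92% of all rows were called (2.19% lower and 1.73% higher). With 1 knockout effect fitted for both lines, limma called 0 of the 10, where 3.78% of all rows were called (2.12% lower and 1.66% higher). At an unadjusted p under 0.05, that fit held 2 of the 10, beside 18% of all rows, namely FZD7 (log2 difference -0.41, adjusted p = 0.0639) and AXIN2 (-0.31, adjusted p = 0.0924). With a variance trend and robust moderation, the same fit called FZD7 alone, but the share of all rows called in that setting was not counted. The paper on these arrays lists both FZD7 and AXIN2 among genes down-regulated in both knockout lines, at an adjusted p of 0.05 or less. Why the fit here gave larger adjusted p-values for FZD7 and AXIN2 was not tested. The size of the knockout differences among the 10 had, on the log2 scale, a median of 0.18 in MDA-MB-231 (0.10 over all rows) and of 0.19 in SUM149 (0.13 over all rows).

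**Figure D1:**
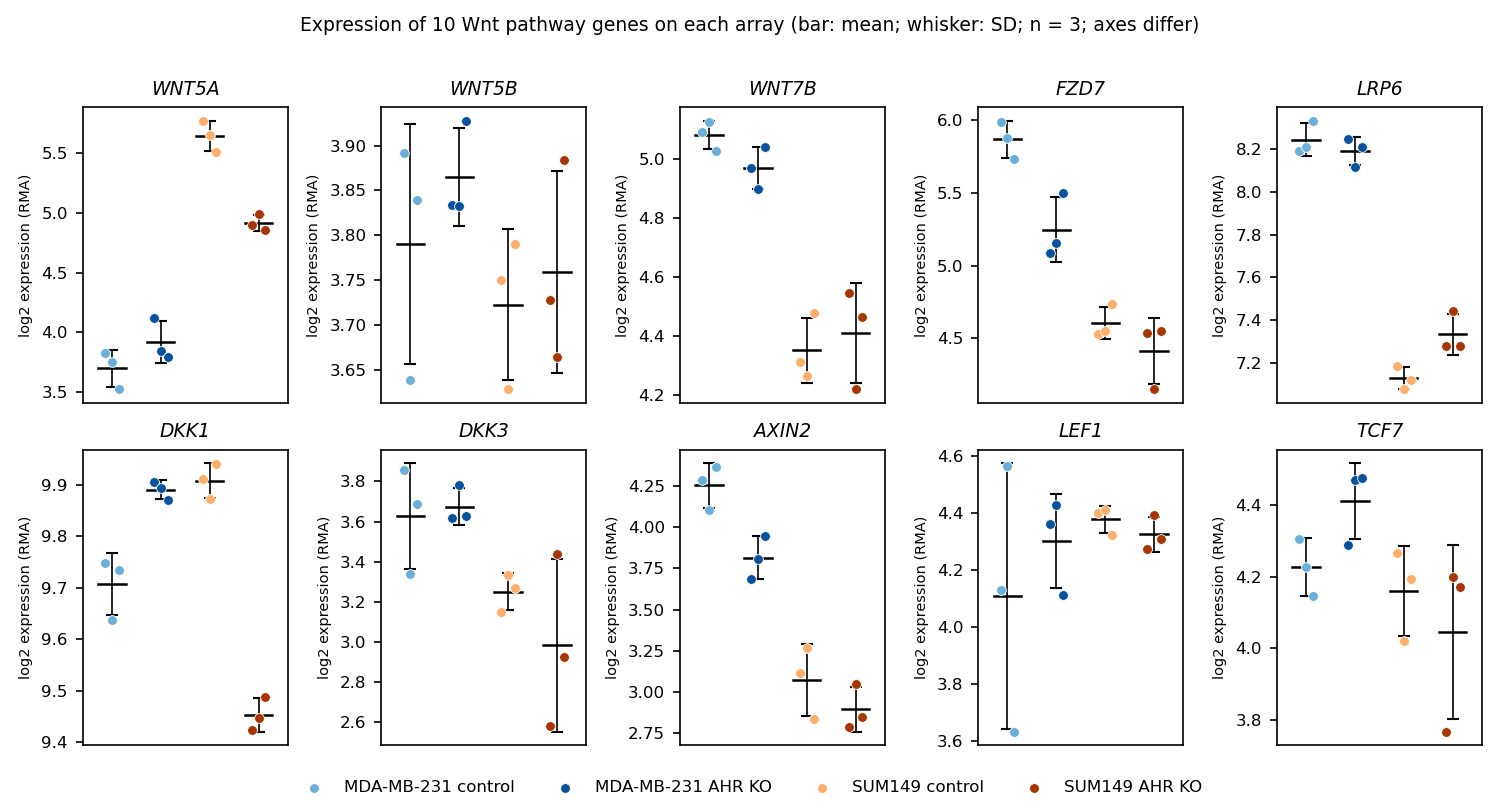
Log2 expression (y axis, a scale of its own for each gene) of the 10 genes on each of the 12 arrays, grouped by line and genotype. Points are arrays, bars are means and whiskers are standard deviations (n = 3). WNT5A and DKK1 fell in SUM149 knockout cells, and FZD7 was lower in MDA-MB-231 knockout cells and lower still in both SUM149 groups.

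Among the ligands, WNT5A (chr3:55465715-55505263 on GRCh38.p14) was the one called with loss of AHR. The log2 levels of WNT5A were 5.76, 5.65 and 5.51 on the SUM149 control arrays and 4.90, 4.99 and 4.85 on the SUM149 AHR KO arrays. The highest knockout array stood under the lowest control array. The mean fell from 5.64 ± 0.13 to 4.92 ± 0.07 (SD, n = 3), which is 1.65-fold lower (log2 difference -0.73, standard error 0.11, adjusted p = 0.00068, limma). In MDA-MB-231, WNT5A read 3.83, 3.75 and 3.52 in control and 4.12, 3.84 and 3.80 in knockout cells. These groups overlapped and lay near the array medians. The difference there was 0.22 with a 95% interval from -0.02 to 0.46 (adjusted p = 0.355). The knockout differences of WNT5A in the lines differed from each other by -0.94 (SUM149 minus MDA-MB-231, standard error 0.15, adjusted p = 0.00186, limma's interaction contrast).

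WNT5B, the close relative of WNT5A, read between 3.63 and 3.93 on all 12 arrays. Those levels are near the array medians, where a change in transcript may show little in the signal. Its groups overlapped throughout, and it was called in none of the comparisons made. The knockout difference of WNT5B was 0.07 in MDA-MB-231 (95% interval -0.11 to 0.26) and 0.04 in SUM149 (-0.15 to 0.22). WNT7B, a ligand of the canonical pathway, also overlapped between control and knockout cells in each line. It read 5.09, 5.12 and 5.03 in control and 4.97, 4.90 and 5.04 in knockout MDA-MB-231 cells. In SUM149 it read 4.31, 4.27 and 4.48 in control and 4.54, 4.22 and 4.46 in knockout cells. The knockout difference of WNT7B was -0.11 (95% interval -0.31 to 0.09) in MDA-MB-231 and 0.06 (-0.14 to 0.26) in SUM149.

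FZD7, a Frizzled receptor (chr2:202033855-202038441 on GRCh38.p14), was the member that fell in MDA-MB-231. It read 5.99, 5.88 and 5.73 in control and 5.08, 5.16 and 5.50 in knockout cells. No knockout array reached the lowest control array. The mean fell from 5.87 ± 0.13 to 5.25 ± 0.22 (SD, n = 3), a 1.54-fold difference (log2 difference -0.62, standard error 0.14, adjusted p = 0.0276, limma). This call was lost when any 1 of 4 MDA-MB-231 arrays was left out. The adjusted p of FZD7 was 0.103 without control replicate 1, 0.0833 without control replicate 2, 0.106 without knockout replicate 1 and 0.101 without knockout replicate 2, while the difference stayed between -0.75 and -0.54 in the 12 fits without 1 array. With MDA-MB-231 fitted on its own 6 arrays the adjusted p of FZD7 was 0.0785, and with the replicate number as a block it was 0.0966. In SUM149, FZD7 read 4.53, 4.55 and 4.74 in control and 4.54, 4.15 and 4.55 in knockout cells, which overlap. The difference there was -0.20 (95% interval -0.49 to 0.10, adjusted p = 0.417), and the knockout differences of the lines did not pass the interaction contrast (0.43, adjusted p = 0.198).

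LRP6, the co-receptor that DKK1 blocks, read 7.18, 7.08 and 7.12 on the SUM149 control arrays and 7.28, 7.44 and 7.28 on the knockout arrays. The knockout arrays all lay above the controls. The difference of 0.20 (standard error 0.07) did not pass the threshold (adjusted p = 0.0778, limma). It passed with the dimmest 33.3% of rows left out (adjusted p = 0.0415) and with a variance trend and robust moderation (adjusted p = 0.017). In MDA-MB-231, LRP6 read 8.19, 8.21 and 8.33 in control and 8.25, 8.12 and 8.21 in knockout cells. Those groups overlapped, with a difference of -0.05 (95% interval -0.21 to 0.10). The knockout differences of LRP6 in the lines differed by 0.26 (95% interval 0.04 to 0.48), which did not pass the threshold (adjusted p = 0.133, limma's interaction contrast) but did with a variance trend and robust moderation (adjusted p = 0.039).

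DKK1, the secreted inhibitor (chr10:52314281-52317657 on GRCh38.p14), had the smallest replicate spread of the 10, at a standard deviation of 0.04 within groups. It read 9.91, 9.87 and 9.94 on the SUM149 control arrays and 9.42, 9.45 and 9.49 on the SUM149 knockout arrays. The groups stood well apart. The mean fell from 9.91 ± 0.03 to 9.45 ± 0.03 (SD, n = 3), a 1.37-fold difference (log2 difference -0.45, standard error 0.06, adjusted p = 0.000177, limma). In MDA-MB-231 the order was the opposite, with 9.75, 9.64 and 9.73 in control and 9.91, 9.89 and 9.87 in knockout cells. The groups did not overlap there either, but the difference of 0.18 (standard error 0.06) did not pass the threshold (adjusted p = 0.111). It passed with the dimmest 33.3% of rows left out (adjusted p = 0.0454) and with a variance trend and robust moderation (adjusted p = 0.00233). The knockout differences of DKK1 in the lines differed by -0.64 (SUM149 minus MDA-MB-231, standard error 0.08, adjusted p = 0.000343, limma's interaction contrast). By that contrast WNT5A and DKK1 were the 2 of 10 called, where it called 13.2% of all rows (6.47% below 0 and 6.69% above). They kept this call, and their fall in SUM149, in each of the 12 fits without 1 array.

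DKK3, a more distant member of the DKK family whose effect on Wnt signalling varies with context, was dim and variable. In SUM149 it read 3.15, 3.34 and 3.27 in control and 2.58, 3.44 and 2.93 in knockout cells. The knockout arrays spanned the controls, and 91.5% of all rows had a smaller replicate spread than DKK3. Its knockout difference was -0.27 (95% interval -0.68 to 0.15) in SUM149 and 0.05 (-0.37 to 0.46) in MDA-MB-231, so a change of the size seen for DKK1 in SUM149 lies inside the SUM149 interval. In MDA-MB-231, DKK3 read 3.86, 3.34 and 3.69 in control and 3.62, 3.78 and 3.63 in knockout cells.

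**Figure D2:**
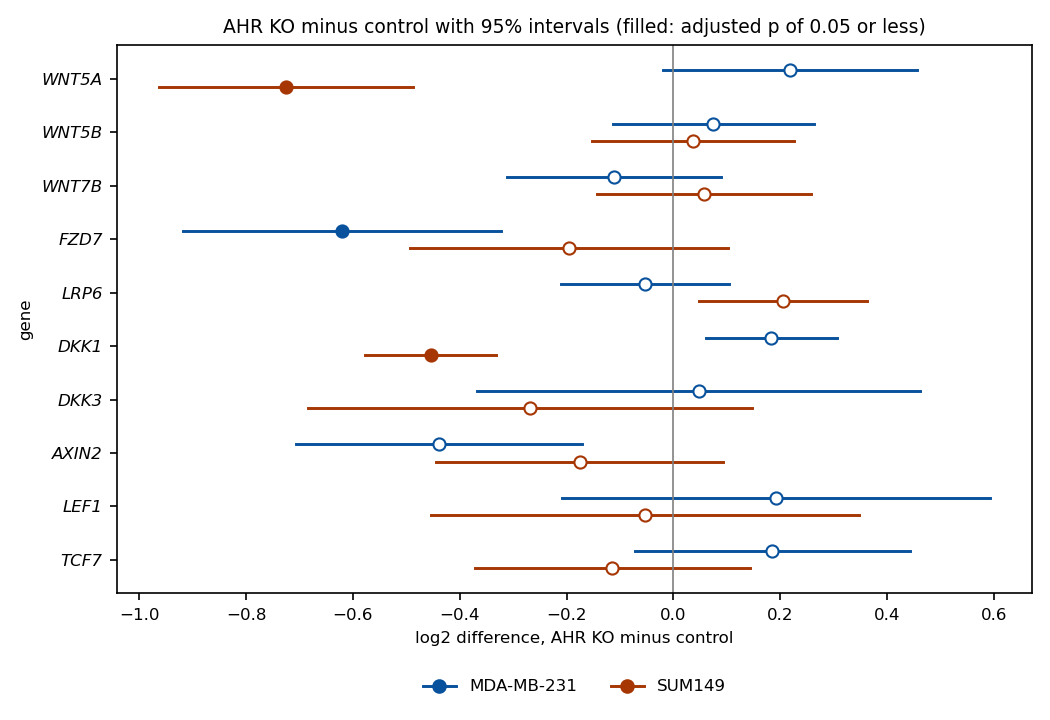
Log2 difference between AHR KO and control cells (x axis) of each gene (y axis) in MDA-MB-231 and SUM149, with 95% intervals from limma. Filled points passed an adjusted p of 0.05. WNT5A (-0.73) and DKK1 (-0.45) lie below 0 in SUM149 and above 0, without passing, in MDA-MB-231, and FZD7 (-0.62) lies below 0 in MDA-MB-231.

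AXIN2, a scaffold of the complex that degrades β-catenin and itself a standard target of β-catenin, read 4.29, 4.11 and 4.37 in control and 3.69, 3.81 and 3.95 in knockout MDA-MB-231 cells. The knockout arrays all lay below the controls and near the array medians. The difference of -0.44 (standard error 0.12) missed the threshold (adjusted p = 0.0792, limma) and passed it with the dimmest 33.3% of rows left out (adjusted p = 0.0484). In SUM149 it read 3.11, 3.27 and 2.83 in control and 2.79, 3.05 and 2.85 in knockout cells, levels under the array medians. These overlapped, with a difference of -0.18 (95% interval -0.44 to 0.09). Over both lines, AXIN2 was called lower only without SUM149 control replicate 3 (log2 difference -0.37, adjusted p = 0.0389).

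LEF1 and TCF7, which carry β-catenin to DNA and are also counted among its targets, were not called with knockout in either line. The LEF1 levels in MDA-MB-231 were 4.13, 4.56 and 3.63 in control and 4.36, 4.43 and 4.11 in knockout cells. The control arrays spread more widely than those of any other group of LEF1 (SD 0.47, against 0.17 in knockout cells of that line and 0.05 and 0.06 in control and knockout SUM149 cells). The knockout difference of LEF1 was 0.19 (95% interval -0.21 to 0.59) in MDA-MB-231 and -0.05 (-0.45 to 0.35) in SUM149. Both intervals use 1 spread pooled over the groups, so the wide MDA-MB-231 control spread enters that of SUM149. The standard error of LEF1 in SUM149 was 0.18 in this fit and 0.07 with SUM149 fitted on its own 6 arrays. TCF7 read 4.31, 4.23 and 4.15 in control and 4.29, 4.47 and 4.48 in knockout MDA-MB-231 cells, which overlap. In SUM149 it read 4.27, 4.02 and 4.19 in control and 3.77, 4.20 and 4.17 in knockout cells. Knockout replicate 1 was the lowest of the 12 arrays for both TCF7 and DKK3. The knockout difference of TCF7 was 0.19 (95% interval -0.07 to 0.44) in MDA-MB-231 and -0.11 (-0.37 to 0.14) in SUM149.

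Counting arrays that did not overlap, 3 of the 10 genes were separated in MDA-MB-231 (FZD7 and AXIN2 lower, DKK1 higher), where 22.1% of all rows were (10.9% lower and 11.2% higher). In SUM149, 3 were separated (WNT5A and DKK1 lower, LRP6 higher), where 31.8% of all rows were (15.1% lower and 16.7% higher). Only DKK1 was separated in both lines, in opposite directions. How many of all rows were separated in both lines was not counted, so this is not set against the rows as a whole.

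The proximal promoters of WNT5A and DKK1 are shown because these are the members that fell together in SUM149 knockout cells. The AHR binds DNA with its partner ARNT at response elements with the core GCGTG, and TCF/LEF factors bind elements with the core CTTTGA. RefSeq promoter windows (build GRCh38.p14, 250 bases before to 50 bases after a transcription start) were found for 5 of the 10 genes, as 8 windows in all, and both strands were searched for the cores. No matches overlapped. The windows for WNT5A and DKK1 read 5′ to 3′ on the strand of the gene, with capitals at a match to either core or its complement. The WNT5A window lies at chr3:55487257-55487556 on the minus strand and the DKK1 window at chr10:52314031-52314330 on the plus strand.
WNT5A promoter: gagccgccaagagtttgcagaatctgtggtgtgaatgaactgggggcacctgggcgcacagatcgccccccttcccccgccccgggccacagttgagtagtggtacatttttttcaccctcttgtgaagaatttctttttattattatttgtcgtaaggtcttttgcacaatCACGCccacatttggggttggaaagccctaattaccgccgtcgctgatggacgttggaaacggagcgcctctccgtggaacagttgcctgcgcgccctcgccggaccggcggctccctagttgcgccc
DKK1 promoter: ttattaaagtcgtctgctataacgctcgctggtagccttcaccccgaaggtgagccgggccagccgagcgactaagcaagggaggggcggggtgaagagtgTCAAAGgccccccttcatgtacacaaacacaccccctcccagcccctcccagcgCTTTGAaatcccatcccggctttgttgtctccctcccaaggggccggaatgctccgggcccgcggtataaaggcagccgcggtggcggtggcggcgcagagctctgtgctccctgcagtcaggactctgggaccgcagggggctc
The WNT5A window held 1 GCGTG core, on the opposite strand, with its first printed base at -78 from the start. The other WNT5A window, at a start still further into the gene, held none. Both windows lie inside the WNT5A locus, away from its 5′ end, and no window at that end was searched. The DKK1 window held no GCGTG and 2 CTTTGA cores, at -149 on the opposite strand and at -95 on the strand of the gene. Neither core was found in the windows of WNT5B (2 windows), LEF1 (1) and TCF7 (2). Only these exact cores were searched, so other forms of either element were not counted in any window. Over all 35116 promoter windows, 36.5% held GCGTG and 12.9% held CTTTGA. Which start these cells use was not measured, and a match is a description of the letters and not a site of binding.

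**Figure D3:**
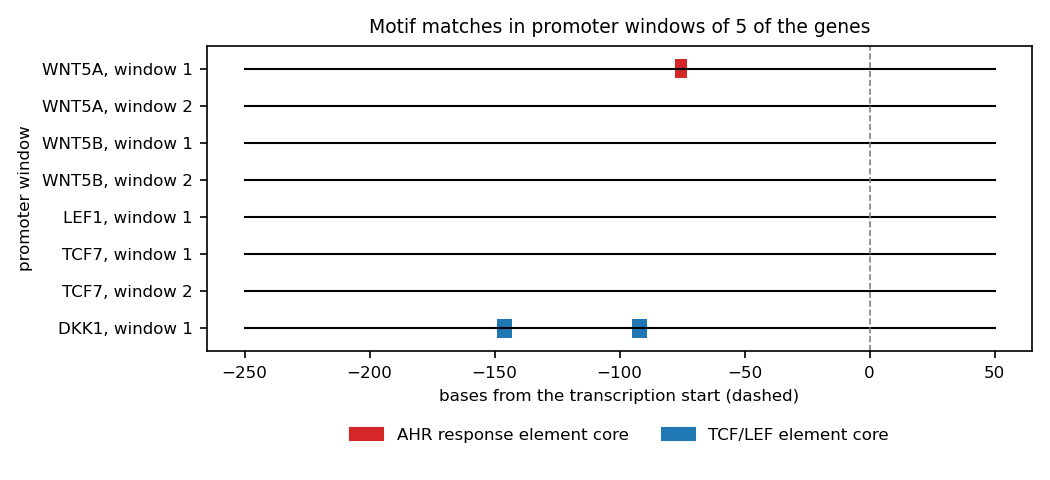
Matches to the AHR response element core and the TCF/LEF element core on either strand (coloured boxes, to scale) in the 8 promoter windows of 5 genes (y axis), by distance from the transcription start in bases (x axis). WNT5A has 1 AHR core at -78, and DKK1 has 2 TCF/LEF cores at -149 and -95.

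The lines were next compared within each genotype, and those of the 10 genes that differed were more often lower than higher in SUM149. Between control cells, 6 of the 10 genes differed (4 lower and 2 higher in SUM149), where 35.4% of all rows were called (18.1% lower and 17.3% higher). Between knockout cells, 8 of the 10 differed (7 lower and 1 higher in SUM149), where 37.3% were called (19% lower and 18.2% higher). Arrays of the lines did not overlap for 7 of the 10 in control cells (5 lower and 2 higher), beside 45.3% of all rows (24% lower and 21.4% higher), and for 8 in knockout cells (7 lower and 1 higher), beside 46.7% (24.3% lower and 22.4% higher). The size of the line differences among the 10 had a median of 0.55 in control and 0.63 in knockout cells on the log2 scale, beside 0.20 and 0.21 over all rows. Both comparisons use the same arrays as the knockout comparisons, so they are not independent of them.

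WNT5A was the member with the highest excess in SUM149. In control cells it stood 3.84-fold higher there than in MDA-MB-231 (log2 difference 1.94, standard error 0.11, adjusted p = 5.2e-08, limma), and in knockout cells 1.99-fold higher (log2 difference 1.00, adjusted p = 1.48e-05). WNT5A in MDA-MB-231 lay near the array medians and was not compared with background, so these folds describe array signal and may understate the difference in transcript. The receptors ran the other way. FZD7 was 2.40-fold lower in SUM149 control cells (log2 difference -1.26, adjusted p = 1.33e-05) and 1.79-fold lower in knockout cells (-0.84, adjusted p = 0.000372). LRP6 was 2.17-fold lower in control cells (log2 difference -1.12, adjusted p = 1.68e-07) and 1.81-fold lower in knockout cells (-0.86, adjusted p = 1.59e-06). No SUM149 array reached the lowest MDA-MB-231 array for either receptor.

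AXIN2 was 2.27-fold lower in SUM149 than in MDA-MB-231 control cells (log2 difference -1.18, standard error 0.12, adjusted p = 9.7e-06, limma) and 1.89-fold lower in knockout cells (-0.92, adjusted p = 7.95e-05). AXIN2 in SUM149 lay under the array medians and was not compared with background, so the same limit holds for these folds. WNT7B was 1.66-fold lower in control cells (log2 difference -0.73, adjusted p = 4.7e-05) and 1.48-fold lower in knockout cells (-0.56, adjusted p = 0.000389). For these, as for the receptors, the arrays of the lines did not overlap in either genotype. WNT5A, FZD7, LRP6, AXIN2 and WNT7B kept these calls in the 12 fits without 1 array.

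DKK1 changed its order between the lines. It was higher in SUM149 than in MDA-MB-231 among control cells (log2 difference 0.20, standard error 0.06, adjusted p = 0.0142, limma) and lower among knockout cells (-0.44, adjusted p = 5.89e-05). The call in control cells was lost without MDA-MB-231 control replicate 2, the lowest of its group (log2 difference 0.17, adjusted p = 0.0574). Ordered by mean, SUM149 control (9.91) and MDA-MB-231 knockout cells (9.89) overlapped, followed by MDA-MB-231 control (9.71) and SUM149 knockout cells (9.45), each apart from its neighbours.

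DKK3 and TCF7 were called lower in SUM149 than in MDA-MB-231 only among knockout cells. The DKK3 arrays of the lines did not overlap in control cells either, by a small margin (highest SUM149 array 3.335, lowest MDA-MB-231 array 3.341). For DKK3 the difference was -0.69 in knockout cells (adjusted p = 0.0125) and -0.38 in control cells (adjusted p = 0.156), and the knockout differences of the lines did not pass the interaction contrast (-0.32, adjusted p = 0.540). For TCF7 it was -0.37 in knockout cells (adjusted p = 0.0281) and -0.07 in control cells (adjusted p = 0.719), and the interaction contrast gave -0.30 (adjusted p = 0.307). The TCF7 call was lost without MDA-MB-231 knockout replicate 2 (adjusted p = 0.0849), without MDA-MB-231 knockout replicate 3 (0.0865) and without SUM149 knockout replicate 1, where the difference shrank to -0.23 (adjusted p = 0.095), and with median-centred arrays (adjusted p = 0.0526). LEF1 was called in neither genotype (0.27 in control cells, adjusted p = 0.302, and 0.02 in knockout cells, adjusted p = 0.937). Without MDA-MB-231 control replicate 2, the highest LEF1 array, LEF1 was higher in SUM149 control cells by 0.50 (adjusted p = 0.0185). Over the 12 fits without 1 array, that difference in control cells ran from 0.03 to 0.50, with an adjusted p as high as 0.893.

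**Figure D4:**
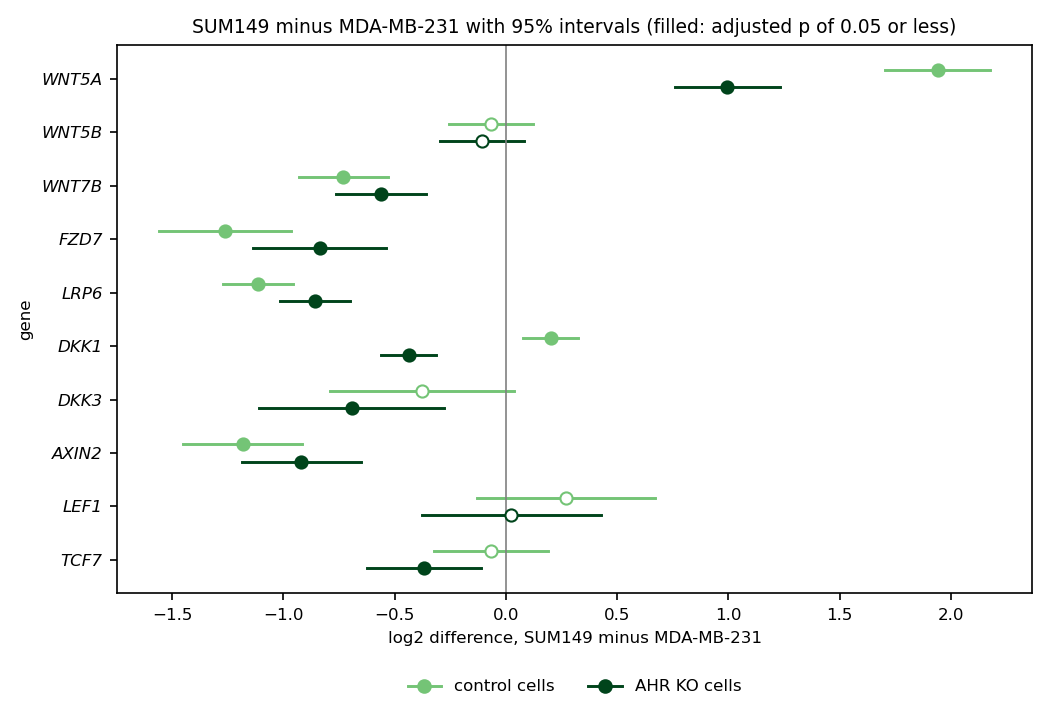
Log2 difference between SUM149 and MDA-MB-231 (x axis) of each gene (y axis) in control and AHR KO cells, with 95% intervals from limma. Filled points passed an adjusted p of 0.05. WNT5A lies above 0 in both genotypes, FZD7, LRP6, AXIN2 and WNT7B lie below 0 in both, and DKK1 crosses from 0.20 in control to -0.44 in knockout cells.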

How the data were processed

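RNA of 12 samples, 3 in each of 4 groups taken from the sample titles, was measured on Affymetrix whole human genome arrays. The values deposited by the authors are log2 expression from RMA, for which the submitters' processing notes name affy 1.48.0 and R 3.2.3. RMA subtracts background, forces a common distribution on the arrays by quantiles and condenses probes to 1 value a gene, so a shift of most transcripts one way would not be seen. Neither the build nor the probe set definition is given in the sources used here, and no scanner files were used, so no background correction or slide could be varied. Values ran from 0.33 to 12.72, the lowest correlation within a group was 0.994, and no pair was identical (at least 31585 rows differed). Precision is limited by how many arrays there are.

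The deposited values were fitted with limma 3.58.1 in R 4.3.3 (lmFit and eBayes) over all 31720 rows with no filter. A model with 4 group means (8 residual degrees of freedom) gave the knockout difference in each line, the difference between these (the interaction contrast) and the line difference in each genotype. A model with cell line and 1 knockout effect (9 residual degrees of freedom) gave the effect across lines. Benjamini-Hochberg adjustment ran over all rows, with 0.05 as threshold. Intervals are 95% and unadjusted. For 1 gene, 3 arrays against 3 cannot give a p below 0.1 by exact permutation, so p-values rest on limma's model. The fitting steps were first tested on simulated data. In all, 20 alternative settings were run, 12 of which left out 1 array each.

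Same-numbered control and knockout arrays did not deviate together over the rows as a whole, so the main fits had no replicate block. All 10 genes chosen are named. The genes, lists and tests were chosen with earlier results of these data known. Lists of other Wnt pathway genes, markers of the lines, AHR with its targets, and genes of like pattern had been drawn up but were not read, because the annotation table (RefSeq, GRCh38.p14) paired 0 of the Ensembl IDs with a symbol. Promoters were matched to the 10 genes by symbol. Promoter searches used Python 3.11.15 with pandas 2.3.3, and figures used matplotlib 3.10.9.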

Additional observations from a re-analysis of the deposited data

Results flagged for a closer look

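The knockout difference of WNT5A differed between the lines by -0.94 on the log2 scale (SUM149 minus MDA-MB-231, adjusted p = 0.00186, limma's interaction contrast), with a difference of -0.73 in SUM149 and a difference of 0.22 in MDA-MB-231. That of DKK1 differed by -0.64 (adjusted p = 0.000343), with a difference of -0.45 in SUM149 and a difference of 0.18 in MDA-MB-231. Groups of 3 arrays are too small for a test of single arrays that stand apart.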

How the results depend on the processing

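Of the 1020 values for single genes under other settings (fits without 1 array included), 985 kept their direction and side of the threshold, 10 no longer passed, 10 newly passed and 15 changed sign. The sign changed only in fits without 1 array and for differences that were not called. In these fits the differences ran from -0.0011 to 0.126 (WNT5B), -0.047 to 0.42 (LEF1) and -0.097 to 0.161 (DKK3) for knockout in MDA-MB-231, from -0.027 to 0.083 (WNT5B), -0.0101 to 0.153 (WNT7B) and -0.191 to 0.026 (TCF7) for knockout in SUM149, from -0.066 to 0.00602 (WNT7B) and -0.0501 to 0.157 (LEF1) across lines, from -0.101 to 0.037 (WNT5B) for the interaction contrast, from -0.12 to 0.0024 (TCF7) between control cells of the lines and from -0.069 to 0.089 (LEF1) between knockout cells.

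For knockout in MDA-MB-231, where 1 of the 10 was called, 0 were with the replicate block, with the line on its own 6 arrays and at an adjusted p of 0.01, 2 with a variance trend and robust moderation (FZD7 and DKK1), 3 with the dimmest 33.3% of rows left out (FZD7, DKK1 and AXIN2), and 0 to 1 without 1 array. All 10 genes passed that filter. Across lines, where 0 were called, 1 was with the trend and robust moderation and with the filter (FZD7), and 0 to 1 without 1 array. The interaction contrast called 3 in place of 2 with the trend and robust moderation (LRP6 added). A fold change of at least 1.5 left 1 of 2 in SUM149 (WNT5A) and 5 of 8 between knockout cells of the lines. A stricter p or an added fold threshold can only lower a count, and for the other settings the cause was not tested. How many of all rows were called under each of these settings was not counted. Whether the counts among the 10 only moved with calls over all rows is therefore not known. The replicate block changed no call but that of FZD7 in MDA-MB-231. Over all rows, same-numbered arrays deviated from their group means with a correlation of -0.017 to 0.035, which shows no pairing over the rows as a whole. Pairing in single genes was not tested, and the block left 4 residual degrees of freedom. Low signal limits DKK3, WNT5B, AXIN2 in SUM149 and in MDA-MB-231 knockout cells, and WNT5A in MDA-MB-231, which lay near or under the array medians. LEF1 and TCF7 also had arrays near those medians. The lowest was 3.63 for LEF1 in MDA-MB-231 control cells and 3.77 for TCF7 in SUM149 knockout cells.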
